A study of Mus musculus with 36 samples.

Results

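The response of primary mouse microglia carrying the Usp18 C61A mutation to 24 h of interferon beta was measured on 4 arrays of the 36 in the series, 2 from cells stimulated for 24 h and 2 from untreated cells (0 h). The arrays were chosen by their titles, and no measured value entered the choice. All stimulated cells received 500 U/ml of interferon beta (IFN-b in the labels), and every culture was kept in DMEM GlutaMAX with fetal calf serum and antibiotics. The groups used beside them were C61A microglia after 6 h (2 arrays), WT microglia at 0 h, 6 h and 24 h deposited in the same run of 12 arrays (2 arrays a time), and USP18ko (KO) and further WT microglia at the same times in another run (2 arrays a time). A run here is an order of deposition, which no label calls a batch. The remaining 12 arrays, of the microglia-derived cell line BV-2, were not used. RNA was labelled with a one-cycle kit and read on GeneChip expression arrays. Each array carries a label as a biological replicate. The labels do not say whether these were separate mice, litters or culture days, nor the age or strain of the animals, so the p-values measure the spread between these arrays.

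Interferon beta is a type I interferon. It binds a receptor made of Ifnar1 and Ifnar2 and activates the kinases Jak1 and Tyk2, and a complex of transcription factors that includes Stat2 and Irf9 then switches on a large set of interferon-stimulated genes. USP18 is a product of one of these genes and has separate roles. As a protease it removes the ubiquitin-like protein ISG15 from the proteins it was attached to, and independently of that activity it binds Ifnar2 and holds receptor signalling down. In C61A the catalytic cysteine is replaced by alanine, which removes the protease activity and leaves the receptor-binding role, whereas KO cells lack the protein. In microglia, the resident macrophages of the brain, loss of USP18 is known for leaving interferon-stimulated genes switched on.

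Usp18 itself, read by 1 probe set, lay at log2 intensities of 10.48 and 8.51 on the untreated C61A arrays and at 13.06 and 13.09 after 24 h. The rise was 3.58 ± 0.91 on the log2 scale (change ± SE, n = 2 arrays a group, adjusted p = 0.0263), and the groups did not overlap. A point mutation keeps the transcript, so this level does not check the C61A label. The KO arrays of the other run read 4.40 and 3.77 untreated and 5.92 and 5.97 at 24 h. The Usp18 gene lies at chr6:121245906-121270917 in GRCm38.p6.

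All values below are log2 intensities as deposited, a change is the difference of group means on that scale, and a change of 1 is a doubling. Genes were called risen or fallen at a Benjamini-Hochberg adjusted p under 0.05 over 7960 genes, from limma with the spread pooled over 24 microglia arrays. The array medians of the 4 arrays ran from 5.65 to 5.83, and the replicates correlated across genes at Pearson's r of 0.951 at 0 h and 0.957 at 24 h. All 13 microglial markers on the array (such as Csf1r and Trem2) read above the array median on all 4 arrays. Astrocyte markers were not absent: 10 and 8 of 12 read above the median on untreated replicates 1 and 2, and 11 and 7 at 24 h. Their summed linear intensity was 13766 and 5257 untreated and 10417 and 3472 at 24 h, so replicate 1 was higher at both times, and no astrocyte gene of 10 tested passed the test. Oligodendrocyte markers read above the median for 7 and 7 of 11 untreated and 7 and 8 at 24 h, with sums of 4881 and 2372 against 6067 and 4368, and 0 of 9 tested passed. Of the 9 or 10 markers each for neurons, monocytes and granulocytes, and lymphocytes, at most 2 read above the median on any of the 4 arrays. Of 12 for fibroblasts and endothelium, at most 2 did, and 1 of 7 tested rose (14.3%, against 5.46% of all genes). It was the endothelial cadherin Cdh5, by 1.14 ± 0.29 (adjusted p = 0.0253). A dimmer second probe set of Cdh5 read a change of 0.02. With 1 of the 4 arrays left out, the change of Cdh5 ran from 0.81 to 1.47. The part of these other cell types in the results was not tested. In bulk RNA, a change in the share of a cell type and a change of RNA per cell cannot be told apart.

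After 24 h, 435 genes rose (5.46% of those tested) and 289 fell (3.63%), together 9.1%. Their median changes were 1.57 and -1.01, the largest 7.41 and -4.34. All 724 had their 24 h arrays wholly above or below their untreated arrays. Over all genes the 24 h arrays lay wholly above for 21.7% and wholly below for 34.6%, and the median change of all genes was -0.12. In 124 of the 724 the mean of the dimmer group was below 5.618, the smallest median of the 24 microglia arrays, so the size of those changes is less certain. The number of calls rests on each of the 4 arrays. Leaving out untreated replicate 1 left 182 calls and untreated replicate 2 left 155. Leaving out 24 h replicate 1 left 63 and 24 h replicate 2 left 105. 6 were called when the spread was taken from the 6 C61A arrays alone. Of the 95 called genes named for this response, 59, 28, 18 and 24 kept the call in these 4 fits, in the order given. Beyond the 4 arrays, 2 stood apart from their partners: untreated WT replicate 1, high for interferon-stimulated genes, and C61A 6 h replicate 2, low for them. Both were picked for these values. Neither enters the C61A change from 0 h to 24 h, so leaving them out alters only the pooled spread. The calls made without them therefore do not check the size of the changes. Without these 2 arrays 1084 genes were called, including all 95.

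**Figure D1:**
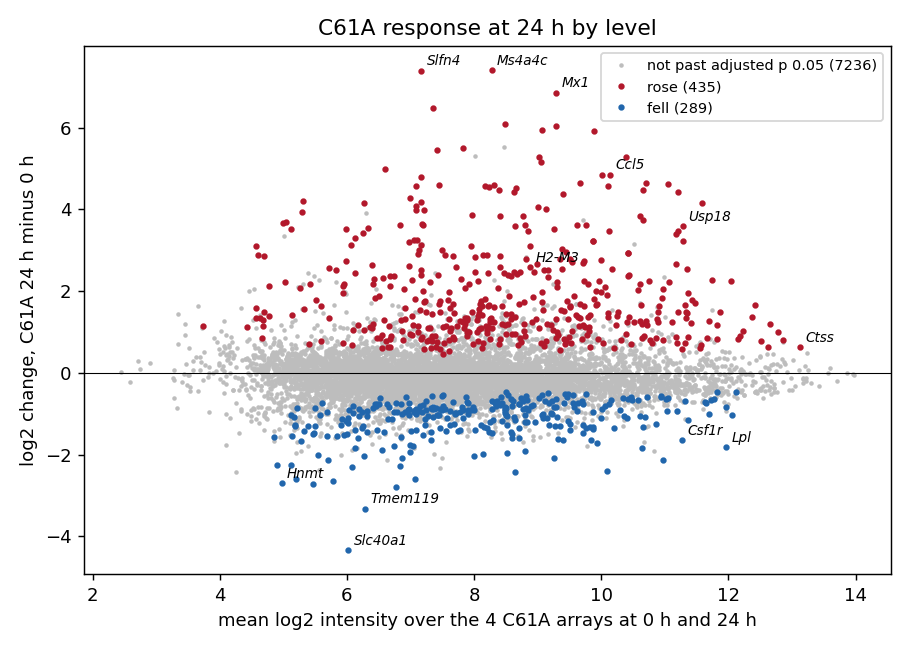
Log2 change of each gene (C61A 24 h minus 0 h, vertical axis) against its mean log2 intensity over the 4 arrays (horizontal axis), 1 point a gene. The 435 risen genes (red) reach 7.41 with Ms4a4c and the 289 fallen genes (blue) reach -4.34 with Slc40a1, and the rest are grey.

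Interferon-stimulated genes bound by the complex that holds STAT2 and IRF9 carry in their promoters the interferon-stimulated response element, a repeat of GAAA letters. The promoters of 6 genes that moved are shown to make this visible, from RefSeq (GRCm38.p6), each running from 250 bases before to 50 after the gene's start, 5′ to 3′ on the gene's strand. A promoter was listed for 16 of the 20 largest rises, and only 4 held the motif: Ddx60, Mndal, Cxcl10 and Gbp7, which are shown. Stat2 encodes a part of the complex itself. Hnmt, with no match, is from the 20 largest falls, of which 14 had a listed promoter and 0 held the motif. Capitals mark the motif searched, GAAANNGAAA on either strand (TTTCNNTTTC on the other).
Ddx60, chr8:61927837-61928136, plus strand: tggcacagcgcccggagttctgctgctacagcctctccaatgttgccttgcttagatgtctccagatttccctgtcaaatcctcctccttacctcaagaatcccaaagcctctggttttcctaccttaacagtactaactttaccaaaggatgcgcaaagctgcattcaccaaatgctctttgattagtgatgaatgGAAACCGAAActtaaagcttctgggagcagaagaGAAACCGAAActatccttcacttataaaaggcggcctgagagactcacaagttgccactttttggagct
Mndal, chr1:173880138-173880437, minus strand: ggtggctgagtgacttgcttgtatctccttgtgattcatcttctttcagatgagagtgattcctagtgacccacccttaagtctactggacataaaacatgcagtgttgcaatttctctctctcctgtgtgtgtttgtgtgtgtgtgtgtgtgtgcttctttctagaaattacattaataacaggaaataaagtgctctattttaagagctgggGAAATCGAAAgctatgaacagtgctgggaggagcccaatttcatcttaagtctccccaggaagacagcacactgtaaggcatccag
Cxcl10, chr5:92348840-92349139, minus strand: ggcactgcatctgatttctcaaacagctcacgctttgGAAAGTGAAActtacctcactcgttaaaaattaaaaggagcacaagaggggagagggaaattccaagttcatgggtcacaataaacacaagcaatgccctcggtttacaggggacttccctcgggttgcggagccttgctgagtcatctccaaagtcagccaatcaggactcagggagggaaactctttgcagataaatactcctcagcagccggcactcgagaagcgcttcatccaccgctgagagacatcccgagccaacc
Gbp7, chr3:142530086-142530385, plus strand: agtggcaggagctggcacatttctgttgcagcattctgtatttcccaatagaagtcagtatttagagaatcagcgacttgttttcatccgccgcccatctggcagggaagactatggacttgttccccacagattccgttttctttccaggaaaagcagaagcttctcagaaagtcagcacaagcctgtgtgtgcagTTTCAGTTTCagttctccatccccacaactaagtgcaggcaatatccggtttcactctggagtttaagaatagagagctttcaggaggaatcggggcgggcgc
Stat2, chr10:128270248-128270547, plus strand: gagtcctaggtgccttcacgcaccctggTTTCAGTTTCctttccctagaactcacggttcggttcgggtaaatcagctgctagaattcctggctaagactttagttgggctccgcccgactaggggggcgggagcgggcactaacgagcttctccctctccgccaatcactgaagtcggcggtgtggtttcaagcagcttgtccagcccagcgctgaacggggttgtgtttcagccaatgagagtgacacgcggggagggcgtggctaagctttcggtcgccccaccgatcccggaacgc
Hnmt, chr2:24049330-24049629, minus strand: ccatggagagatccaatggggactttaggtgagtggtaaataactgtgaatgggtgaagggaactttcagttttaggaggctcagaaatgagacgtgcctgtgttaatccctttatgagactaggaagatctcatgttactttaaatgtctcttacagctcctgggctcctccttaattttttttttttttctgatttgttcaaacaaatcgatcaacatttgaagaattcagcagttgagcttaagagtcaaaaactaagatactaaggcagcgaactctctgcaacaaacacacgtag
The Ddx60 window holds the motif 2 times, beginning 53 and 19 bases before the start. Those of Mndal and Gbp7 hold it once, 36 and 53 bases before, and those of Cxcl10 and Stat2 at 213 and 222 bases before. A promoter was listed for 353 of the 435 risen genes, and 53 (15.0%) held the motif, as did 36 of 128 (28.1%) that rose by 2 or more. Among fallen genes 10 of 234 (4.27%) held it, among all genes tested 271 of 6516 (4.16%). Among all genes with a listed promoter it was 1079 of 27025 (3.99%). A gene counted if any of its windows held the motif, and Mndal has 2 windows, of which 1 is shown. Counted by window, 1131 of 32851 (3.44%) held it. These shares describe letters in a window, not binding sites.

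Neither subunit of the receptor passed the test, and 4 genes further down the signalling pathway rose. Ifnar1 read 7.39 and 8.0 untreated and 7.81 and 7.27 at 24 h (adjusted p = 0.769), and Ifnar2 changed by 0.28 ± 0.18 (adjusted p = 0.343). The arrays of both groups overlap for both subunits. Of 22 receptor and signalling genes tested, 4 rose (18.2%, against 5.46% of all genes) and 0 fell (median change 0.41). They were the kinase Tyk2, the transcription factor Stat2, and the feedback inhibitors Socs1 and Socs3. Stat2 went from 5.49 and 4.66 to 9.36 and 9.16, a rise of 4.18 ± 0.88 (adjusted p = 0.0135). Socs1 went from 4.58 and 3.89 to 7.59 and 7.91 (adjusted p = 0.0324) and Socs3 rose by 2.79 ± 0.74 (adjusted p = 0.03). Tyk2, from 7.21 and 7.58 to 8.83 and 9.25, had the smallest SE of the 4 (0.29). Jak1 changed by 0.44 ± 0.15 and missed the threshold (adjusted p = 0.0888).

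Interferon regulatory factors, the transcription factors that relay and amplify the signal, followed: 5 of 7 tested rose (71.4%, against 5.46% of all genes, median 1.43). Irf7, the amplifier of the type I response, went from 7.53 and 5.41 to 11.56 and 11.71, the largest rise of the family at 5.16 ± 1.08 (adjusted p = 0.0134). Irf1 rose by 2.67 ± 0.59 and Irf9, the partner of Stat2, by 1.65 ± 0.41. Irf2 and Irf5 rose by 1.43 and 1.19, while Irf3 changed by -0.06. A second probe set of Irf5 read a change of 0.01, and with the mean of both Irf5 missed the threshold (adjusted p = 0.12). The ISG15 pathway, the substrate side of the missing protease activity, had 4 of 4 tested members rise (100%, against 5.46%, median 2.98). Beside Usp18 these were the activating enzyme Uba7 (7.78 and 7.01 to 9.93 and 9.60), the conjugating enzyme Ube2l6 (6.09 and 4.67 to 8.84 and 9.17), and the ligase Trim25, up by 1.37 ± 0.35. Other probe sets of Trim25 read changes of 1.46 and 3.11. Isg15 itself is read only by a probe set that GEO's annotation gives to more than one gene, so it has no value here. Of 22 other deubiquitinating enzymes tested, 2 rose (9.09%, against 5.46% of all genes) and 0 fell. Usp25 rose by 1.40 ± 0.42 and Otud5 by 1.11 ± 0.23. Usp25 lost the call whichever C61A array was left out (adjusted p from 0.102 to 0.257), and Otud5 held it only without untreated replicate 2 (adjusted p = 0.0441, otherwise up to 0.0992). Of the 13 genes named as called in these 2 paragraphs before the other deubiquitinases, every change kept its sign when 1 array was left out. Without untreated replicate 1, 8 kept the call, without untreated replicate 2, 2 (Tyk2 and Irf5), without 24 h replicate 1, 1 (Tyk2), and without 24 h replicate 2, 0. The lost adjusted p lay between 0.0578 and 0.27. Irf5 fell to a change of 0.74 without untreated replicate 1 and Irf9 to 1.07 without untreated replicate 2. Over the 4 left-out arrays the count of risen genes ran from 0 to 2 for receptor and signalling genes, 0 to 3 for interferon regulatory factors, 0 to 3 for the ISG15 pathway and 0 to 1 for the other deubiquitinating enzymes, so these counts rest on all 4 arrays, while the list medians of the regulatory factors ran from 1.28 to 1.59 (1.43 with all arrays).

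Of 34 antiviral effectors tested, 26 rose (76.5%, against 5.46% of all genes) and 0 fell (median 2.70). Their summed linear intensity was 21946 and 7188 on the untreated arrays and 113686 and 110415 at 24 h, so untreated replicate 1 read higher than replicate 2 and the 24 h arrays read alike. Mx1, a dynamin-like GTPase that traps viral particles, went from 7.37 and 4.35 to 12.79 and 12.64, a rise of 6.86 ± 1.71 (adjusted p = 0.0248). Its untreated arrays differed from each other by more than those of most genes, yet lay far below the 24 h arrays. Isg20, an RNA exonuclease, rose by 5.93 ± 1.12. Oasl1, of the oligoadenylate synthetase family, went from 4.75 and 4.62 to 10.08 and 10.20, and its replicates lay close together at both times (5.46 ± 0.77, adjusted p = 0.00311). Ddx60, an RNA helicase whose promoter is shown above, rose by 5.50 ± 1.32. Cmpk2, a mitochondrial nucleotide kinase, rose by 5.27 ± 1.31 and Ifit2, which binds viral RNA, by 4.61 ± 1.22. Of the Schlafen family, linked to growth control of immune cells, 3 of 4 tested rose (75%, against 5.46%). Slfn4 went from 3.49 and 3.45 to 10.97 and 10.75, a rise of 7.39 ± 1.03 (adjusted p = 0.00311). Slfn1 reached 5.79 and 6.28 from 3.13 and 3.20. Slfn1 was dim: its untreated arrays lie below the median of every array. Its 24 h replicate 1 lies near that array's median of 5.80, so the size of its rise is less certain. Slfn2 rose by 1.49 ± 0.32, while Slfn8 changed by 3.15 ± 1.04 and missed the threshold (adjusted p = 0.071). TRIM ligases, PARP enzymes and nuclear body proteins rose in 11 of 13 cases (84.6%, against 5.46%, median 2.80). Among them the nuclear body organiser Pml rose by 3.41 ± 0.77, Daxx by 3.10 ± 0.70 and the antibody-binding ligase Trim21 by 3.03 ± 0.73. Of the 12 genes called here, Oasl1, Slfn1 and Slfn4 kept the call whichever of the 4 arrays was left out. The others lost it without at least 1 array, at adjusted p between 0.0502 and 0.202. Over those fits the antiviral count ran from 2 to 16 and the list median from 2.38 to 3.58. The count of risen TRIM, PARP and nuclear body genes ran from 0 to 1 and their median from 2.27 to 3.36, and 2 Schlafen genes passed in each fit.

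**Figure D2:**
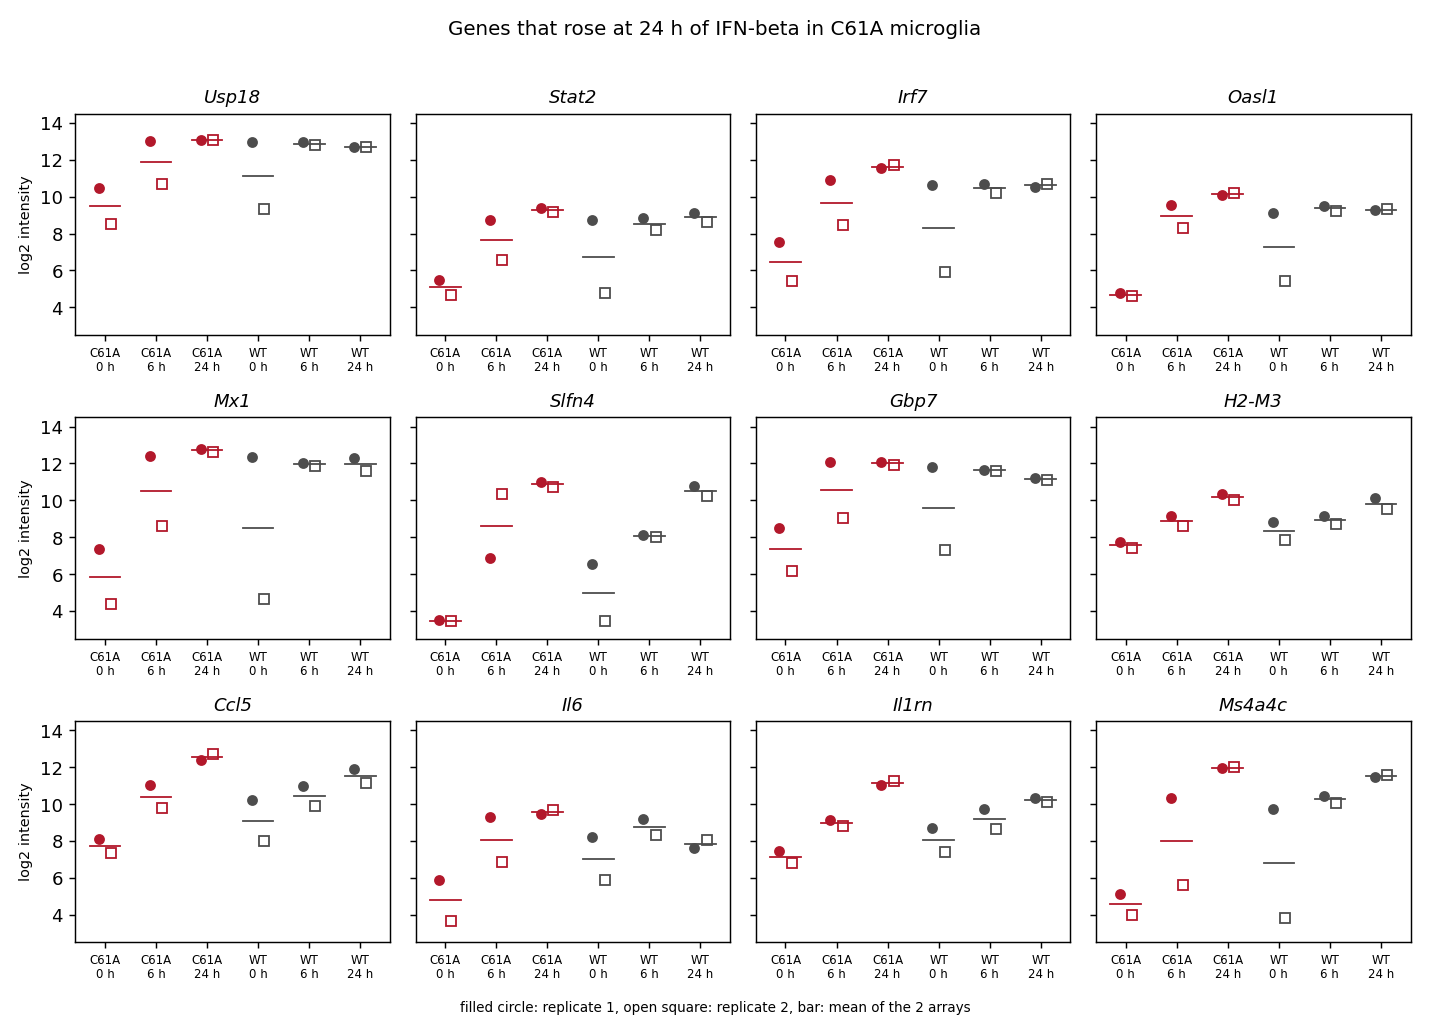
Log2 intensity (vertical axis) of 12 risen genes on each array, C61A in red and the WT arrays of the same run in grey, by time (horizontal axis), with a bar at the mean of 2 arrays. The 24 h C61A arrays lie above both untreated C61A arrays in each panel, as for all 435 risen genes, from which the panels were chosen. One untreated WT array and one 6 h C61A array stand apart from their partners in most panels.

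The guanylate-binding proteins and immunity-related GTPases, which attack vacuoles of intracellular pathogens, rose in 10 of 11 cases and fell in 0 (median 3.84). The risen share was 90.9%, against 5.46% of all genes. Iigp1 went from 7.31 and 5.22 to 12.52 and 12.07 (6.03 ± 1.51, adjusted p = 0.0251), Ifi47 rose by 5.29 ± 1.28 and Gbp7 by 4.65 ± 1.10. Gbp2b, with a change of 5.51, missed the threshold. Nucleic acid sensors rose in 8 of 14 cases (57.1%, against 5.46%, median 2.24). Ifi209 and Mndal belong to the interferon-inducible p200 family of DNA-binding proteins. Ifi209 went from 6.64 and 4.23 to 11.41 and 11.64 (6.09 ± 1.17) and Mndal from 8.48 and 6.68 to 12.48 and 12.38 (4.85 ± 0.85, adjusted p = 0.00683). Zbp1, a sensor of left-handed nucleic acid, rose by 3.62 ± 0.97, and the double-stranded RNA receptor Tlr3 by 3.83 ± 0.98. The adaptors Mavs and Sting1 changed by -0.33 and 0.35 and did not pass. Of 8 surface Toll-like receptors and partners 1 rose (12.5%, against 5.46% of all genes), the endotoxin receptor Tlr4, by 1.01 (adjusted p = 0.0431). Tlr4 lost the call whichever C61A array was left out (adjusted p from 0.0603 to 0.319) and with means over its probe sets (adjusted p = 0.0737). Of the 7 genes called in this paragraph from the first 2 lists, 4, 0, 0 and 1 kept the call without untreated replicate 1, untreated replicate 2, 24 h replicate 1 and 24 h replicate 2. The lost adjusted p lay between 0.0562 and 0.246, and without untreated replicate 2 the change of Zbp1 fell to 2.17. In those fits 0 to 4 of the GTPases and 0 to 4 of the sensors passed, with medians from 3.02 to 5.08 and from 1.91 to 2.56.

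Class I antigen presentation rose in 13 of 17 cases (76.5%, median 1.84) with 0 falls. Class II rose in 1 of 7 (14.3%, median 0.10), against 5.46% of all genes. Of 9 class II genes on the array, 2 and 1 read above the array median untreated and 2 and 1 at 24 h. For class I, 17 and 15 of 17 did untreated and 17 and 17 at 24 h. Most class II genes were thus dim at both times, and whether their level bears on the count was not tested. H2-M3, a non-classical class I molecule that presents formylated peptides, went from 7.75 and 7.44 to 10.35 and 10.01. Its rise of 2.59 ± 0.31 (adjusted p = 0.00192) kept the call whichever of the 4 arrays was left out. The peptide transporter Tap1 rose by 3.59 ± 0.80, the immunoproteasome subunit Psmb9 by 2.95 ± 0.56, and H2-T24 by 3.65 ± 0.98. Other probe sets of Tap1 read changes of 0.61, 0.17 and 0.10. The classical heavy chains H2-K1 and H2-D1, named after their values were seen, rose by 1.19 and 1.00. The class II gene that rose was the protease Ctss, from 12.81 and 12.82 to 13.50 and 13.38. The invariant chain Cd74 changed by 0.08 and did not pass. Whether the class I and class II changes differ was not tested. Of 11 co-stimulatory and checkpoint genes 6 rose (54.5%, against 5.46%). Cd40 went from 5.07 and 5.02 to 8.97 and 9.27 (4.08 ± 0.77, adjusted p = 0.00879). The checkpoint ligand Cd274 rose by 2.94 ± 0.67, the death ligand Tnfsf10 by 4.14 ± 0.89, and Cd47, which tells phagocytes not to engulf a cell, by 1.49 ± 0.25. Of the 9 named genes from H2-M3 to Cd47 other than the classical heavy chains, between 1 and 5 kept the call when 1 array was left out, with lost adjusted p from 0.0505 to 0.216. The count of risen class I genes ran from 2 to 9, that of co-stimulatory and checkpoint genes from 1 to 2, and class II had 0 in each of those fits.

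CC chemokines, which draw monocytes and T cells, rose in 7 of 10 cases (70%, against 5.46% of all genes, median 2.83). Ccl5 went from 8.10 and 7.33 to 12.41 and 12.72, a rise of 4.85 ± 0.60 (adjusted p = 0.00192). Ccl12 rose by 5.91 ± 1.41, Ccl7 by 4.37 ± 0.99 and Ccl2 by 3.40 ± 0.74. Of 9 CXC chemokines 2 rose (22.2%, against 5.46%). These were the Cxcr3 ligands Cxcl10 (9.31 and 7.44 to 13.10 and 12.94) and Cxcl11 (4.56 ± 1.07). The third ligand, Cxcl9, changed by 3.36 and missed the threshold, and the neutrophil attractants Cxcl1 and Cxcl2 changed by -0.38 and -0.31. Cytokines and their antagonists rose in 7 of 17 cases (41.2%, against 5.46%, median 1.64), with 0 falls. Il6 went from 5.88 and 3.66 to 9.44 and 9.70 (4.80 ± 1.03, adjusted p = 0.014) and Il15 rose by 4.60 ± 1.18. Antagonists rose too: the interleukin-1 receptor antagonist Il1rn went from 7.46 and 6.78 to 11.02 and 11.25 (4.02 ± 0.67, adjusted p = 0.00564), and the interleukin-18 binding protein Il18bp rose by 3.20 ± 0.55. Tnf changed by 0.96 and Ifnb1 by 0.20, neither past the test. Of the 10 called genes named here with an error or array values, Ccl5 and Il1rn kept the call whichever array was left out. The count kept was 9 without untreated replicate 1 and 3, 2 and 3 without untreated replicate 2, 24 h replicate 1 and 24 h replicate 2. The lost adjusted p lay between 0.0629 and 0.145. The risen count ran from 1 to 5 for CC chemokines, 0 to 2 for CXC chemokines and 2 to 5 for the cytokines and antagonists, and Cxcl11 missed the threshold with means over its probe sets (3.23, adjusted p = 0.0658).

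Of 15 complement genes tested, 6 rose (40%, against 5.46% of all genes) and 1 fell (6.67%, against 3.63%), with a median of 0.58. The factors C2 and Cfb, which form the C3-cleaving enzymes, rose by 3.61 ± 0.76 and 4.27 ± 0.79, Cfb from 5.67 and 4.04 to 9.44 and 8.80. The 3 C1q chains rose by small amounts with close replicates, C1qa by 0.58 ± 0.14, C1qb by 0.84 ± 0.17 and C1qc by 0.88 ± 0.14. C1qc went from 10.65 and 10.80 to 11.60 and 11.62 (adjusted p = 0.00485). The receptor C3ar1 rose by 0.91 ± 0.16, and Cd59a, which blocks the membrane attack complex, fell by 1.09 (SE 0.27, adjusted p = 0.0254). Of 6 Fc receptors 2 rose (33.3%, against 5.46%). These were the activating receptors Fcgr1 (8.56 and 7.08 to 12.37 and 12.41) and Fcgr4 (10.10 and 9.24 to 12.86 and 12.92). The inhibitory Fcgr2b changed by 0.66 ± 0.34, the low-affinity Fcgr3 by -0.12 ± 0.58, the shared signalling chain Fcer1g by 0.22 ± 0.15 and the neonatal receptor Fcgrt by -0.58 ± 0.63, none past the test.

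Cell death genes rose in 9 of 18 cases (50%, against 5.46% of all genes, median 0.78), with 0 falls. Casp4, the inflammatory caspase also known as caspase-11 in mice, went from 6.98 and 6.20 to 9.66 and 9.19 (2.83 ± 0.40, adjusted p = 0.00311), and Casp8 rose by 2.01 ± 0.40. Among surface genes chosen for the size of their rise, Ms4a4c went from 5.14 and 4.0 to 11.93 and 12.03 (7.41 ± 1.42, adjusted p = 0.00918). Slamf7, a receptor of the SLAM family, went from 4.10 and 4.12 to 8.96 and 9.23 (4.99 ± 0.75). Of 23 phagocytic and lysosomal genes 6 rose (26.1%, against 5.46% of all genes) and 1 fell (4.35%, against 3.63%). Lgals3bp, a secreted glycoprotein, rose by 2.93 ± 0.57, and Axl, a receptor for apoptotic cells, by 2.38 ± 0.71 (adjusted p = 0.049). A dimmer second probe set of Axl read a change of -0.12. Of the 15 called genes named in this paragraph and the one before, C1qc, Casp4 and Slamf7 kept the call whichever array was left out. The counts kept were 12, 5, 3 and 6 without untreated replicate 1, untreated replicate 2, 24 h replicate 1 and 24 h replicate 2, and the lost adjusted p lay between 0.0508 and 0.335. Without untreated replicate 2 the change of Axl fell to 1.26. The risen count ran from 1 to 5 for complement, 0 to 2 for Fc receptors, 1 to 3 for cell death genes and 0 to 3 for phagocytic and lysosomal genes, and 0 complement genes fell in those fits.

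**Figure D3:**
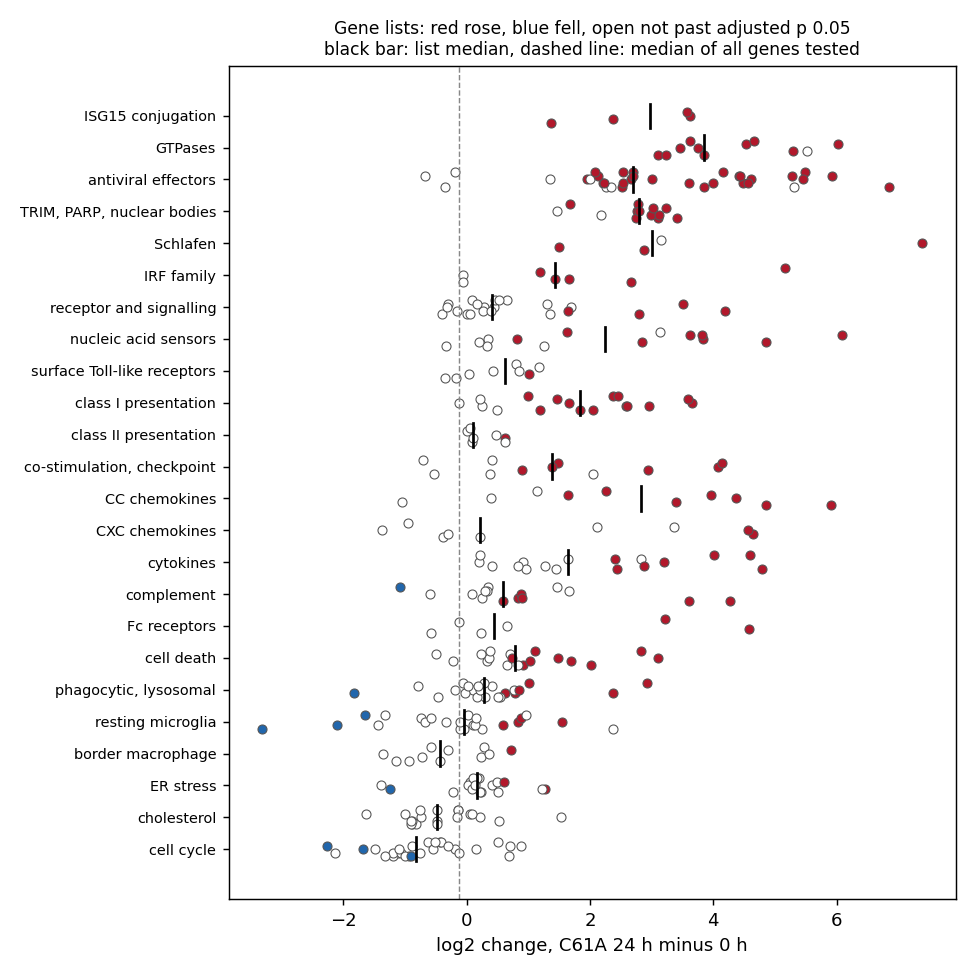
Log2 change, C61A 24 h minus 0 h (horizontal axis), of each tested gene of 24 lists (rows), filled where the gene rose (red) or fell (blue). The medians (black bars) of the 6 lists at the top lie between 1.43 and 3.84, those of class II presentation, resting microglia and ER stress near 0, and that of the cell cycle at -0.82. The dashed line at -0.12 is the median of all genes tested.

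Genes of resting microglia did not move one way. Of 23 tested, 3 fell (13%, against 3.63% of all genes) and 4 rose (17.4%, against 5.46%). Tmem119, a surface marker of unstimulated microglia, read 7.87 and 8.02 untreated and 4.67 and 4.57 at 24 h (-3.32 ± 0.59, adjusted p = 0.00687). Cx3cr1, the receptor for the neuronal chemokine fractalkine, went from 9.67 and 10.92 to 8.10 and 8.30 (-2.10 ± 0.50). Csf1r, the survival receptor of macrophages, went from 11.94 and 12.25 to 10.47 and 10.43 (-1.65 ± 0.27, adjusted p = 0.00564). The 4 that rose were the 3 C1q chains and Selplg, the selectin ligand, by 1.54 ± 0.26. P2ry12, the purine receptor that guides microglial processes, changed by 2.38 and missed the threshold, as did Trem2 at -1.43. Tyrobp, the signalling partner of Trem2, changed by -0.33.

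The largest fall was that of Slc40a1, ferroportin, the cell's iron exporter, from 8.01 and 8.36 to 3.59 and 4.10 (-4.34 ± 0.84, adjusted p = 0.00996). Its 24 h arrays lie below the median of every array, so its size is less certain. The same holds for the falls of Tmem119 above and of Hnmt, Havcr2 and Bub1 below. Lpl, lipoprotein lipase, went from 12.77 and 12.98 to 11.12 and 10.97 (-1.83 ± 0.35). Hnmt, which inactivates histamine, read 6.16 and 6.48 untreated and 3.79 and 3.46 at 24 h (-2.70 ± 0.44, adjusted p = 0.00564). Havcr2, the checkpoint receptor TIM-3, went from 5.74 and 6.30 to 3.53 and 3.99 (-2.26 ± 0.33, adjusted p = 0.00328). Arrb1, beta-arrestin 1, fell by 2.79 and Etl4 by 2.60. Of the 10 called genes named in this paragraph and from Tmem119 to Selplg other than C1q, Csf1r, Etl4, Havcr2 and Hnmt kept the call whichever array was left out. All 10 kept it without untreated replicate 1, 6 without either replicate 2 array and 4 without 24 h replicate 1, with lost adjusted p from 0.0525 to 0.162. Of the resting microglia list, 1 to 3 rose and 1 to 3 fell in those fits.

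Among the other large falls were targets of the oxidative stress factor NRF2. Hmox1, heme oxygenase 1, went from 11.63 and 12.46 to 9.47 and 10.34 (-2.14 ± 0.39, adjusted p = 0.00764). Gclm, of glutathione synthesis, went from 10.72 and 11.88 to 8.76 and 9.01 (-2.42 ± 0.52), and Srxn1, sulfiredoxin, fell by 2.04 (SE 0.52). Other probe sets of Srxn1 read changes from -1.64 to -0.09. The organic anion pump Abcc3 fell by 2.27 (SE 0.47). Egln3, an oxygen sensor of the prolyl hydroxylase family, fell by 2.61 (SE 0.47) and the stress-response gene Sesn1 by 2.44 (SE 0.70, adjusted p = 0.0424). No list of NRF2 targets was tested, so these are single genes named for their size.

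Of 28 cell division genes, 3 fell (10.7%, against 3.63% of all genes) and 0 rose. Their median change was -0.82, and 5 of 28 had a change above 0, as did 3193 of all 7960 genes. Bub1, a spindle checkpoint kinase, went from 6.69 and 5.81 to 4.30 and 3.67 (-2.27 ± 0.39, adjusted p = 0.0062). Birc5, survivin, fell by 1.68 (SE 0.44) and Rrm1, of ribonucleotide reductase, by 0.90 (SE 0.26, adjusted p = 0.0429). Outside the list, the centromere histone Cenpa fell by 2.13 (SE 0.43). Untreated replicate 1 read higher than replicate 2 for all 4 genes. Of the 10 called genes of this paragraph and the one before, between 1 and 5 kept the call when 1 array was left out, with lost adjusted p from 0.0508 to 0.394. Without untreated replicate 1 the change of Birc5 was -0.89 and that of Rrm1 was -0.42, and Rrm1 and Sesn1 missed the threshold with means over their probe sets (adjusted p = 0.0551 and 0.054). The count of fallen genes in the list ran from 0 to 10 over the left-out arrays. Genes of cholesterol synthesis passed the test in 0 of 20 cases (median -0.48). Of 19 ER stress genes 2 rose (10.5%, against 5.46% of all genes) and 1 fell (5.26%, against 3.63%). The stress factors Atf3 and Xbp1 rose, by 1.28 and 0.61 (adjusted p = 0.0379 and 0.022), and Herpud1 fell by 1.24 (adjusted p = 0.0291). All 3 lost the call whichever C61A array was left out, at adjusted p of at least 0.0689, 0.0773 and 0.0969, and Xbp1 changed by 0.36 with means over its probe sets (adjusted p = 0.29).

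**Figure D4:**
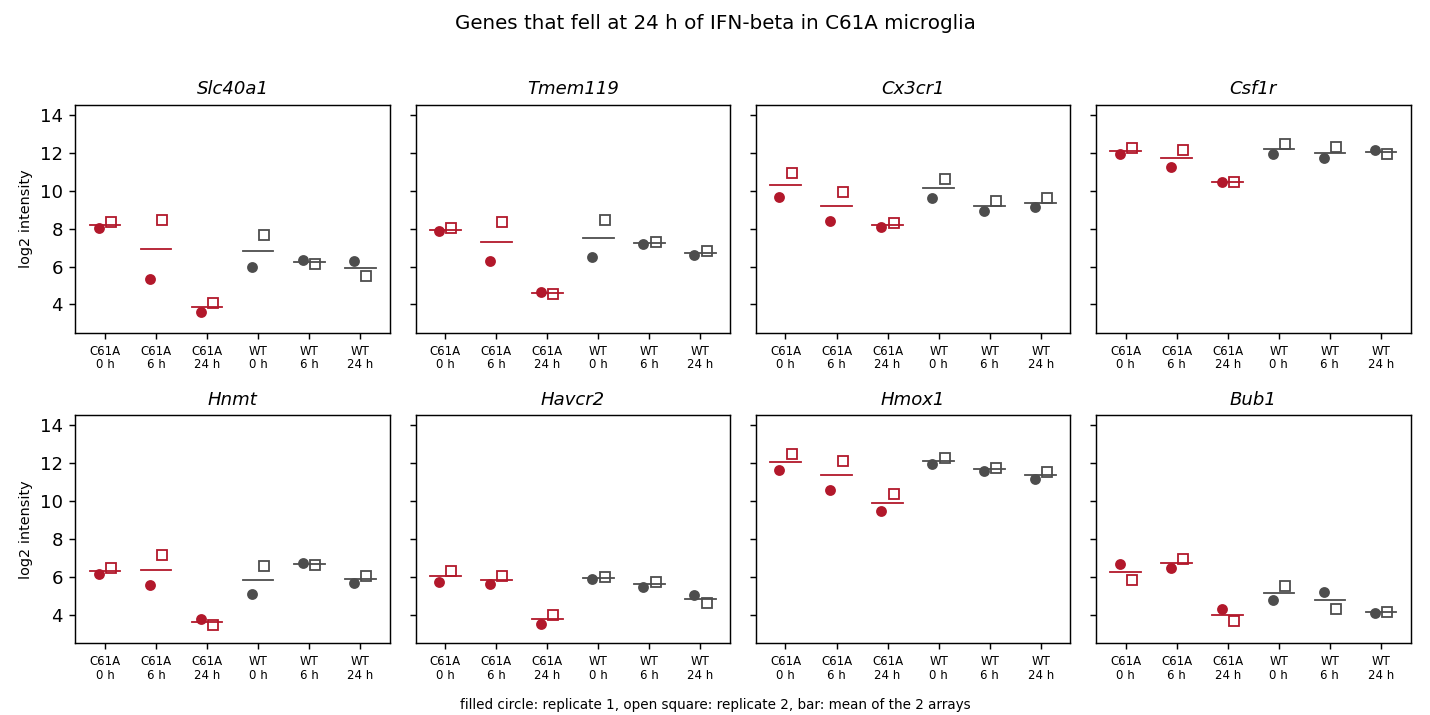
Log2 intensity (vertical axis) of 8 fallen genes on each array, C61A in red and the WT arrays of the same run in grey, by time (horizontal axis), with a bar at the mean of 2 arrays. The 24 h C61A arrays lie below both untreated C61A arrays in each panel, as for all 289 fallen genes, from which the panels were chosen. Slc40a1, for example, read 3.59 and 4.10 against 8.01 and 8.36.

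The position of 24 h after 6 h in the same cells was read against C61A arrays at 6 h. These disagreed with each other: replicate 2 read 8.62 for Mx1 where replicate 1 read 12.39, and 12.39 for the bone protease Ctsk where replicate 1 read 9.45. The pair correlated at 0.896 across genes. 4 genes (0.0503%) rose from 0 h to 6 h and 0 fell. At 6 h the genes called risen at 24 h had a median change of 0.76 and those called fallen -0.29. From 6 h to 24 h, 11 genes were higher (0.138%) and 31 lower (0.389%). The 6 h response shares its untreated arrays with the 24 h response, the later interval shares the 24 h arrays, and both share the 6 h arrays.

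Higher at 24 h than at 6 h were C1qc (10.88 and 10.61 at 6 h, 11.60 and 11.62 at 24 h, adjusted p = 0.0151) and C1qa, by 0.86 ± 0.14. Klf10, a transcription factor induced by TGF-beta, rose from 8.17 and 7.72 to 9.16 and 9.33, and the purine channel P2rx4 by 0.98 ± 0.19. Slfn1 also rose, by 2.06 ± 0.42 (adjusted p = 0.0457), though its 24 h replicate 1 lies near its array's median. Among the lower genes, Hnmt, Havcr2, Bub1 and Cenpa fell by 2.73, 2.06, 2.72 and 2.08, and the tropomyosin gene Tpm2 from 9.74 and 10.23 to 7.71 and 8.12. Ctsk (-6.03 ± 0.71), Rhox5 (-3.96 ± 0.61) and Mycn (-3.94 ± 0.65) are genes that read far higher at 6 h than at 0 h or 24 h, above all on 6 h replicate 2. Usp18 changed by 1.20 ± 0.91 (adjusted p = 0.624). Without 6 h replicate 2, 1 gene was called, Ctsk. Without 6 h replicate 1, 147 were called, and without 24 h replicate 1 or 2, 3 and 4. With the spread of the run's own 12 arrays, 0 were called (998 at an unadjusted p under 0.05 in the fit over 24 arrays).

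Whether C61A microglia respond unlike WT cells was tested as the difference between their 24 h responses, with the WT arrays of the same run. 0 genes passed (0% higher and 0% lower), with 497 at an unadjusted p under 0.05 and a lowest adjusted p of 0.699. One untreated WT array limits this test. Replicate 1 read 12.97 for Usp18 and 9.14 for Oasl1, near the 24 h WT arrays (12.67 and 12.69, and 9.27 and 9.31), whereas replicate 2 read 9.31 and 5.44. The summed intensity of the 34 antiviral effectors was 92356 on that array and 10274 on its partner, far above both untreated C61A arrays. Without replicate 1 the test still called 0, and without replicate 2 it called 83.

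The difference for Usp18 was 2.04, with a 95% interval from -0.69 to 4.78 (adjusted p = 0.777), so neither no difference nor a sizeable one can be told from these arrays. It was 0.21 without untreated WT replicate 1 and 3.88 (adjusted p = 0.0591) without replicate 2. For Oasl1 it was 3.46 (interval 1.13 to 5.79), for Il6 4.02 (0.90 to 7.13) and for Socs1 3.96 (1.10 to 6.82), all at an adjusted p of 0.764. Il6 read 7.59 and 8.03 on the 24 h WT arrays against 9.44 and 9.70 in C61A, and Socs1 5.92 and 6.00 against 7.59 and 7.91. Cxcl10 read 11.44 and 11.58 against 13.10 and 12.94. Fam3b, a secreted cytokine-like protein, read 4.69 and 4.53 against 6.96 and 7.57. Among falling genes the difference was -3.40 for Slc40a1 and -2.53 for Tmem119, which read 6.61 and 6.79 in WT at 24 h against 4.67 and 4.57. The genes named here beside Usp18 were picked for large differences at an unadjusted p under 0.05, with responses that do not overlap. Their intervals and the separation of their arrays follow in part from that choice. At 24 h Il6, Socs1, Cxcl10 and Fam3b read higher on both C61A arrays than on both WT arrays, and Slc40a1 and Tmem119 lower. The tested differences between the responses missed the threshold. Without untreated WT replicate 2 the differences of Oasl1 (5.31), Cxcl10 (5.98), Socs1 (5.80) and Tmem119 (-3.50) passed it, but the untreated WT array that then remains is replicate 1, which reads near the 24 h arrays. Without replicate 1 they were 1.61, 1.51, 2.12 and -1.56, each at an adjusted p of 1.

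The genes called in C61A mostly moved the same way in WT cells. Of the 435 risen, 408 were higher at 24 h in WT of the same run, against 46.3% of all genes, and of the 289 fallen 273 were lower. The median WT changes were 0.60 and -0.38, or 1.06 and -0.55 against untreated replicate 2 alone. These genes were chosen for a large change in C61A, so a smaller median elsewhere follows in part from the choice. Read the other way, 130 genes rose (1.63%) and 45 fell (0.565%) in WT of the other run. Of those 130, 83 (63.8%) were among the risen in C61A, which is 19.1% of that list. In C61A 124 of the 130 were higher, as were 3193 of all 7960 genes. Of the 45, 14 (31.1%) were among the fallen, 4.84% of that list. The 130 genes had a median change of 1.84 in the WT run that chose them. It was 1.37 in C61A, 0.69 in WT of the C61A run (1.07 against untreated replicate 2 alone) and 0.35 in KO. Here too, smaller medians elsewhere follow in part from the choice. Slfn1 is among the genes with a smaller change in C61A than in that other WT pair, 2.87 against 5.86, though the runs differ. Slfn1 was dim in C61A, so the size of its change there is less certain. Across all genes the C61A and WT changes correlated at Pearson's r of 0.612 in the same run and 0.709 against the other run. Genes are not independent replicates.

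**Figure D5:**
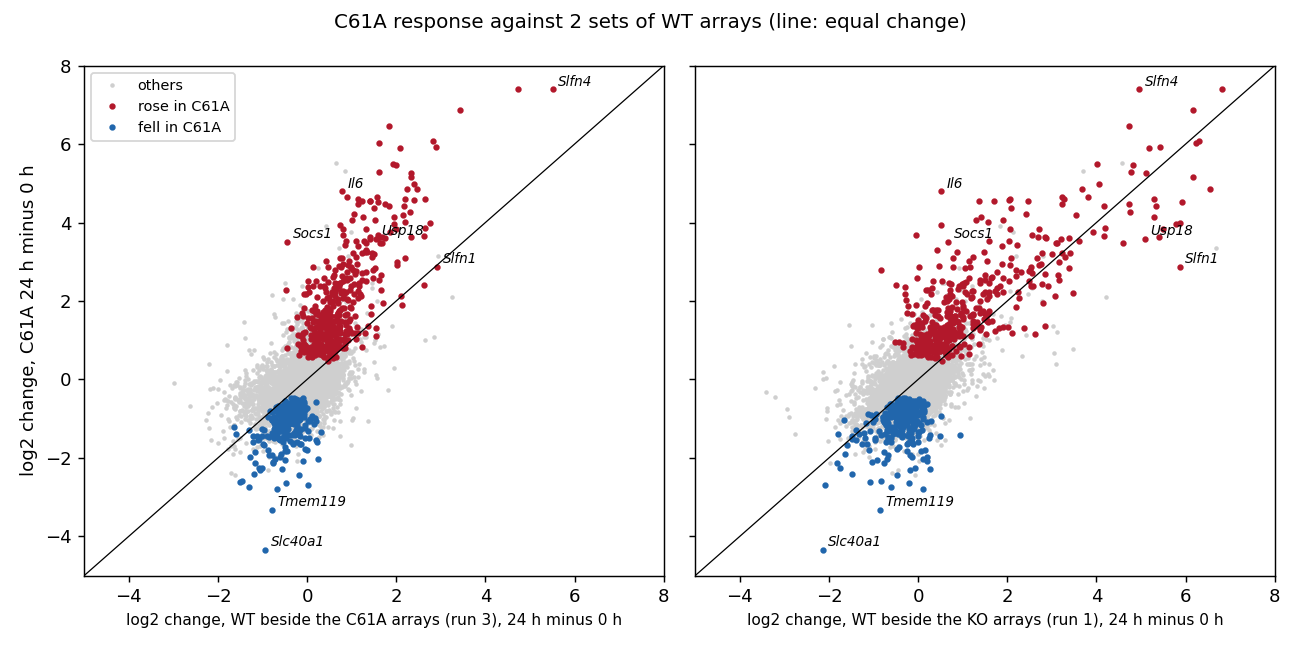
Log2 change at 24 h in C61A (vertical axis) against that in WT microglia (horizontal axis), on the left with the WT arrays of the same run and on the right with those of the other run, 1 point a gene. In the left panel 421 of the 435 risen genes (red) lie above the line of equal change and 284 of the 289 fallen genes (blue) below it, and the choice of the genes by their C61A change favours this.

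The KO comparison asks whether losing the protease activity alone and losing the whole protein give unlike responses. For 8 genes (0.101%) the C61A change minus the KO change lay above 0 past the test, and for 3 (0.0377%) below 0, with 969 at an unadjusted p under 0.05. C61A and KO arrays lie in different deposition runs, so genotype and run cannot be told apart here. The untreated KO arrays were already high for interferon-stimulated genes: Oasl1 read 11.95 and 10.70 untreated and 12.23 and 12.32 at 24 h, against 4.75 and 4.62, then 10.08 and 10.20, in C61A. Cxcl10 read 12.63 and 12.37 in untreated KO and 9.31 and 7.44 in untreated C61A. Of the genes risen in C61A, 379 were higher at 24 h in KO (46.3% of all genes were), with a median change of 0.46.

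Ly86, which pairs with a Toll-like receptor relative, was also high in untreated KO cells. It went from 10.42 and 10.64 to 12.27 and 12.35 in C61A and read 12.71 and 12.84, then 12.58 and 12.69, in KO (difference 1.91, interval 1.34 to 2.49, adjusted p = 0.0136). Fcrls, an Fc receptor-like gene typical of microglia, changed by -0.11 in C61A (12.70 and 12.52, then 12.60 and 12.40) and went from 10.79 and 10.55 to 8.68 and 7.64 in KO (difference 2.40, adjusted p = 0.0326). Havcr2 went down in C61A and up in KO, from 6.34 and 6.69 to 7.13 and 7.58 (difference -3.09, interval -4.08 to -2.10, adjusted p = 0.0137). The 24 h C61A arrays of Havcr2 lie below the median of every array, so the size of this difference is less certain. For Usp18 the difference was 1.72 (interval -1.02 to 4.46, adjusted p = 0.662). Leaving out 1 array left between 0 and 8 calls. 0 remained without KO untreated replicate 2, KO 24 h replicate 2, C61A untreated replicate 2 or C61A 24 h replicate 1.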

How the data were processed

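Gene expression was measured in 36 arrays, and the 24 primary microglia arrays entered the fits, in 12 groups of genotype, time and deposition run with 2 arrays each. The values are the log2 intensities that the authors deposited in the series' value table, and they were used as given. The log base was inferred from their range of 1.66 to 14.03. Per the submitters' processing notes the authors used affy, while summarisation and normalization are not given by the sources used here. Probe sets were named through GEO's platform annotation: of 22690, 20393 had 1 gene, 691 several and 1606 were unlisted. Only those with 1 gene were used, and 20364 of them had a gene ID found in RefSeq (GRCm38.p6). A probe set had to exceed the array median on at least 2 of the 24 arrays, and the brightest read its gene, which left 7960 of 12394 genes. A member of a list that passed only through the group where it is high had to differ, so the counts describe the tested members.

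Differences were fitted with limma 3.58.1 (lmFit and eBayes, R 4.3.3, 12 residual degrees of freedom), with Benjamini-Hochberg adjustment over all genes. The code was tested on simulated data. Figures and promoter counts were made with Python. The number of arrays limits the precision. Named genes were Usp18, the 20 largest called rises and falls, up to 6 called members of each gene list, and up to 10 called genes a direction in the other comparisons. Genes named from these lists as not past the test, and H2-K1 and H2-D1, were chosen after their values were seen. In a comparison with fewer than 10 called genes in a direction, the largest changes at an unadjusted p under 0.05 without overlap filled it up. The groups, gene lists and comparisons were chosen with earlier results of these data known. Alternatives were other scalings, no filter, means over probe sets, fewer arrays, a replicate block, another eBayes setting and leaving out each array. The 2 arrays that stand apart were picked for their values. The results of 2 further alternatives, chosen after seeing the data, are the list counts without single arrays and the WT change against untreated replicate 2 alone.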

Additional observations from a re-analysis of the deposited data

Results flagged for a closer look

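The difference between the C61A and KO responses at 24 h passed the test for 11 genes, whose values follow as C61A minus KO. The difference was above 0 for Fcrls (2.40), Fgd2 (2.23), Slc12a9 (2.02), Ly86 (1.91), Ebi3 (1.60), Tcof1 (1.53), Noc2l (1.53) and Gramd1a (1.40). It was below 0 for Havcr2 (-3.09), Ankrd44 (-2.18) and Rnf11 (-1.17). Fgd2, which encodes a guanine nucleotide exchange factor of Cdc42, went from 7.14 and 7.28 to 8.58 and 8.53 in C61A and from 8.52 and 8.73 to 7.86 and 7.62 in KO, so the arrays moved in opposite directions. Rnf11 went from 9.62 and 9.59 to 8.92 and 8.99 in C61A and from 8.81 and 8.86 to 9.30 and 9.41 in KO. For Noc2l the KO arrays went from 7.72 and 7.81 to 6.62 and 6.55 while those of C61A read 7.40 and 7.76, then 7.82 and 8.03. Genotype and deposition run cannot be told apart for these genes, and 0 of the 11 kept the call in every fit that left out 1 of the 8 arrays compared.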

How the results depend on the processing

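The 724 calls of the C61A response at 24 h became 645 with each array centred on its median, 695 after another quantile normalization, 592 with no filter, 734 with means over probe sets, 773 with a trended, robust eBayes and 1084 without the 2 arrays that stand apart (untreated WT replicate 1 and 6 h C61A replicate 2). They became 190 with the 12 arrays of the run alone, 6 with the C61A arrays alone and 43 with no term for the run, and from 63 to 182 without 1 C61A array. The 2 arrays that stand apart are not part of this comparison, so leaving them out altered only the pooled spread. With the replicate number as a block, 1842 genes passed (777 higher, 1065 lower). No label says what a number marks, and each comparison holds only 2 pairs, so the block is an alternative here. As a hint from the data, deviations of same-numbered C61A arrays correlated at 0.604 (0 h and 24 h), 0.655 (0 h and 6 h) and 0.538 (6 h and 24 h), those of KO at 0.715 and of WT in the C61A run at 0.296. Under the block 12 of 28 cell division genes fell (3 without it), 5 of 20 cholesterol genes (0 without it) and 3 of 10 astrocyte markers (0 without it). All 95 named calls held under the block, and 6 named genes not called before passed. The difference from WT stayed at 0 calls under each alternative except without untreated WT replicate 2, so the range over left-out arrays was 0 to 83. The 11 calls against KO became 9 (5 higher, 4 lower, against 8 and 3) with centring, 17 after quantile normalization, 1 with no term for the run, 296 with the block, 274 without the arrays that stand apart, and 0 to 8 without 1 array. The 42 calls of 24 h against 6 h became 30 with centring (4 higher, 26 lower, against 11 and 31), 25 with means over probe sets, 0 with the run alone and with the C61A arrays alone, 3 with no term for the run, 401 with the block, 5 without the arrays that stand apart, and 1 to 147 without 1 array. Signs turned for genes that had not passed. Over the 4 left-out C61A arrays Ifnar1 ran from -0.47 to 0.15, Fcgr3 from -0.67 to 0.42, Cd74 from -0.20 to 0.37 and Cxcl1 from -1.52 to 0.76, and the Usp18 difference from WT became -1.51 against WT of the other run. The causes were not tested. Left-out fits assume that a lone array varies like the others. Of the 95 named calls of the C61A response, 14 held whichever of the 4 C61A arrays was left out.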

Other observations

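Other genes among the largest changes lie outside the lists described. The kinase gene Pim2 went from 7.76 and 8.05 to 5.84 and 5.79 at 24 h in C61A microglia and fell by 2.09 (SE 0.50). Pald1 fell by 2.30 (SE 0.59). Cnn1, the smooth muscle calponin, read 8.05 and 5.61 untreated and 4.36 and 3.85 at 24 h, and its untreated replicate 1 stood above replicate 2, as the astrocyte markers did. The transcript BC023105 went from 4.52 and 3.71 to 10.38 and 10.79 (6.47 ± 1.46, adjusted p = 0.0172). At 6 h it read 9.78 on replicate 1 and 4.47 on replicate 2, the same division between these 2 arrays as for Mx1.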
